A study of Mus musculus with 4 samples.

Results

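The genes described are the voltage-gated potassium (Kv) channel subunits and the hyperpolarisation-activated cyclic nucleotide-gated (HCN) channels of the mouse. They were taken by name from the annotated probes of an Agilent expression array, as symbols that begin with Kcna, Kcnb, Kcnc, Kcnd, Kcnf, Kcng, Kcnh, Kcnq, Kcns, Kcnv or Hcn before a digit, together with the Kcnab beta subunits. The rule matched 49 names, of which 47 are channel subunits and 2, Kcnq1ot1 and Kcnd3os, are RNAs that overlap a channel gene and were set apart. All 47 subunits were measured on all 4 arrays, among 20648 named genes that were. Kcnh8 is counted among them throughout, though its 2 probes may read the opposite strand, as described below. Each gene was represented by its brightest probe.

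Kv channels open when a neuron depolarises and let potassium out, which ends the action potential and sets how soon the next can follow. A channel is built of alpha subunits grouped around a pore. Cytoplasmic beta subunits and electrically silent alpha subunits modify it without making a channel by themselves. HCN channels work the other way round: they open on hyperpolarisation, pass a mixed cation current that pulls the cell back towards threshold, and are strengthened by cyclic nucleotides. In cortical pyramidal cells these families divide the work between axon, soma and dendrite, and in fast-spiking interneurons the Kv3 family permits firing at high rates.

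Expression was measured in prefrontal cortex of B6J mice at 3 months of age, in 4 groups that crossed 2 diets with 2 genotypes. Mice were wild-type or heterozygous for Glo1, which encodes the methylglyoxal-detoxifying enzyme glyoxalase 1, and ate starch or sucrose from postnatal day 21 for about 70 days. The groups are therefore wild-type on starch (the study's control), wild-type on sucrose, heterozygous on starch and heterozygous on sucrose. RNA of 3 mice was pooled per group, 200 ng of it was Cy3-labelled, and every pool was run on a single array. The sex of the mice and the make of the Glo1 allele are not given in the sources used here.

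With 1 array per group, no difference below has a replicate check or a p-value, and mice within a pool cannot be told apart. All 4 arrays lay on 1 slide, so position on the slide and group cannot be told apart either. A level is the processed signal as a multiple of the 75th percentile on its array (1780 to 1929 intensity units), and a change is the log2 difference of 2 such levels. Changes of 1.5-fold or more, a log2 size of 0.58, were counted. The only error the arrays give is that of spots. Repeated spots within an array put the standard deviation of a change at 0.068 in the brightest signal quartile, 0.12 in the next and 0.34 below the median signal. The first value came from 291 repeated probes, the second from only 5, and the last from 17 positive-control probes. These figures leave out the spread between mice and between labelling reactions. In tissue RNA, fewer cells of a type and less RNA per cell cannot be told apart.

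The labels were checked on Glo1, whose level was 4.04, 5.53, 2.74 and 3.04 in the order wild-type starch, wild-type sucrose, heterozygous starch and heterozygous sucrose. Levels given below as 4 values keep this order. Both heterozygous arrays were lower than their diet-matched wild-type arrays. All 10 cortical excitatory neuron markers were measured, with summed levels of 71.9, 97.3, 88.6 and 94.2 in the same order. Of these sums Camk2a alone made up 37.0, 53.7, 50.6 and 54.0. With sucrose all 10 were higher in wild-types (median 0.27) and 6 in heterozygotes (median 0.062). Their median interaction was -0.30, and their part in the changes of the channels was not tested. Markers of other tissue moved between the arrays as well. The 12 measured striatal markers summed to 37.5, 60.5, 56.3 and 32.5, the 7 olfactory bulb markers to 10.4, 2.46, 9.77 and 5.47, the 6 blood markers to 277, 135, 235 and 152, and 9 of 10 choroid plexus markers (Slc4a5 was not measured) to 1.32, 2.53, 1.38 and 70.9. Their part in the changes of single channels was not tested. Their values are given beside the subunits past 1.5-fold that shared a direction with them, and the other such subunits are counted after the families.

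For 42 of the 47 (89.4%) the highest and the lowest array were less than 1.5-fold apart, against 85.3% of all genes. Of the 35 subunits above the median signal, 33 (94.3%) stayed within 1.5-fold, against 94.4% of all such genes. The median range was 0.31 on the log2 scale, a 1.24-fold difference, and 0.27 over all genes. Above the median signal it was 0.29 for the subunits and 0.21 over all genes. A range under 0.25 was found in 14 of the 47 subunits (29.8%) against 46.3% of all genes, and above the median signal in 11 of 35 (31.4%) against 61.8%. Fewer of the subunits than of all genes thus lay within that narrow range, while the shares within 1.5-fold were close. These shares were not tested. The highest array was wild-type starch for 13 subunits (27.7% against 31.4% of all genes), wild-type sucrose for 14 (29.8% against 26.6%), heterozygous starch for 12 (25.5% against 20.2%) and heterozygous sucrose for 8 (17.0% against 21.8%). The lowest was wild-type starch for 10 (21.3% against 26.9%), wild-type sucrose for 12 (25.5% against 21.2%), heterozygous starch for 10 (21.3% against 25.5%) and heterozygous sucrose for 15 (31.9% against 26.3%). These shares were not tested either.

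**Figure D1:**
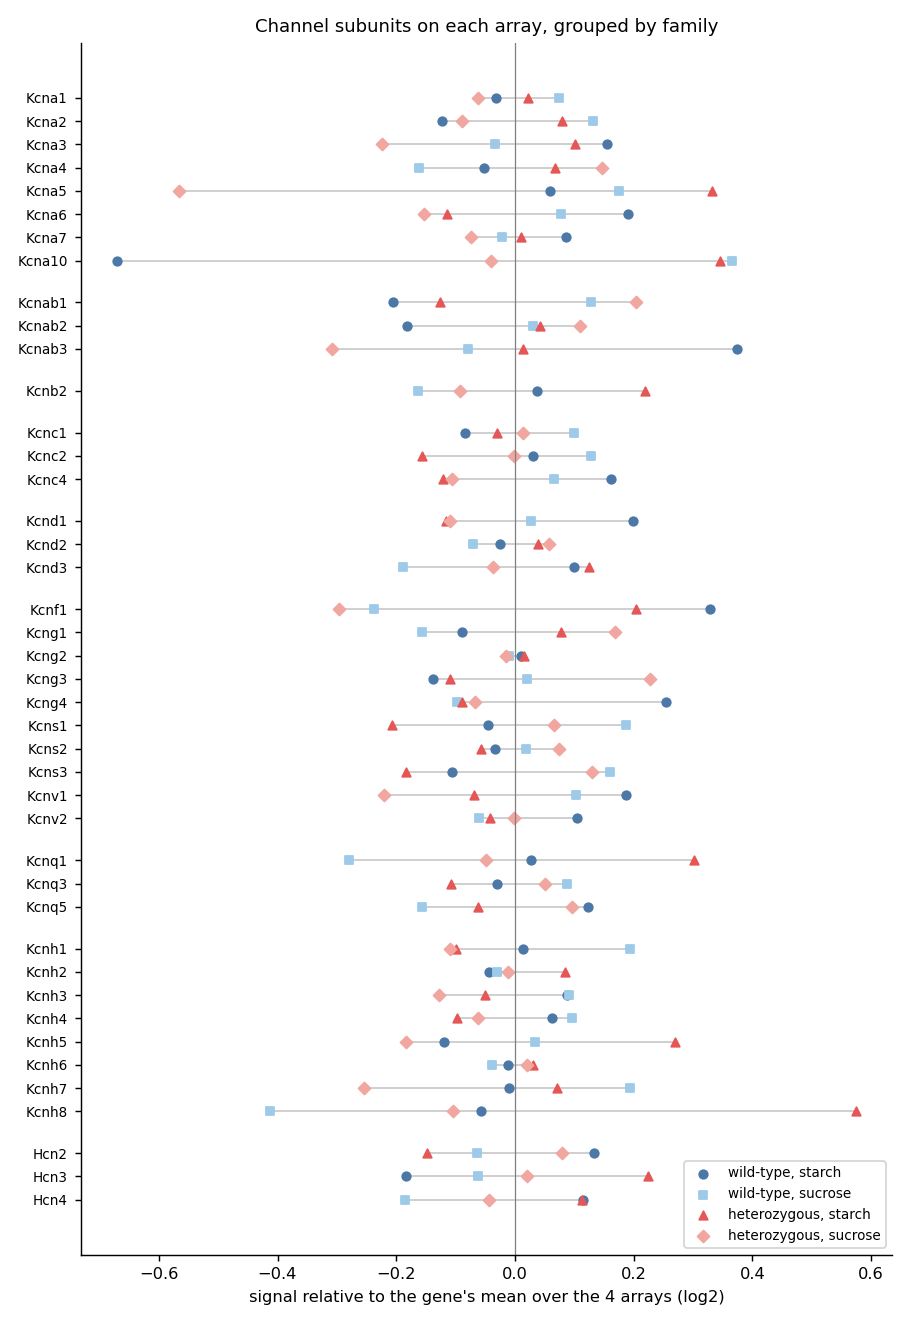
Each line is 1 of 42 channel subunits, grouped by family, and the horizontal axis is the level on each array relative to the gene's own mean over the 4 arrays (log2). Most genes span less than 0.4, and the widest spans are those of Kcna10 (1.03), Kcnh8 (0.99) and Kcna5 (0.90).

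Few subunits passed 1.5-fold in any comparison. Sucrose against starch in wild-type mice gave 1 higher and 0 lower of 47, where 2.4% of all genes were higher and 3.53% lower. The same diet contrast in heterozygous mice gave 0 higher and 2 lower, where 3.57% and 2% of all genes were. Heterozygous against wild-type on starch gave 2 higher and 0 lower, where 1.48% and 2.48% of all genes were. On sucrose that genotype contrast gave 0 higher and 1 lower, where 3.28% and 1.29% of all genes were. A single gene is 2.13% of the 47, so each of these counts lies within 2 genes of the share over all genes.

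Heterozygous sucrose against wild-type starch, which changes both factors at once, gave 1 subunit higher and 3 lower, where 3.93% and 3.39% of all genes were. The interaction, the diet change in heterozygous minus that in wild-type mice, was past the same size for 0 subunits upward and 3 downward, where 5.68% and 2.76% of all genes were. The median change of the subunits was 0.014 and -0.029 for diet in wild-type and heterozygous mice, and 0.0089 and -0.037 for genotype on starch and sucrose. Over all genes the medians of these 4 comparisons lay between -0.019 and 0.00039. The comparisons share arrays, so a single array enters several of them.

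**Figure D2:**
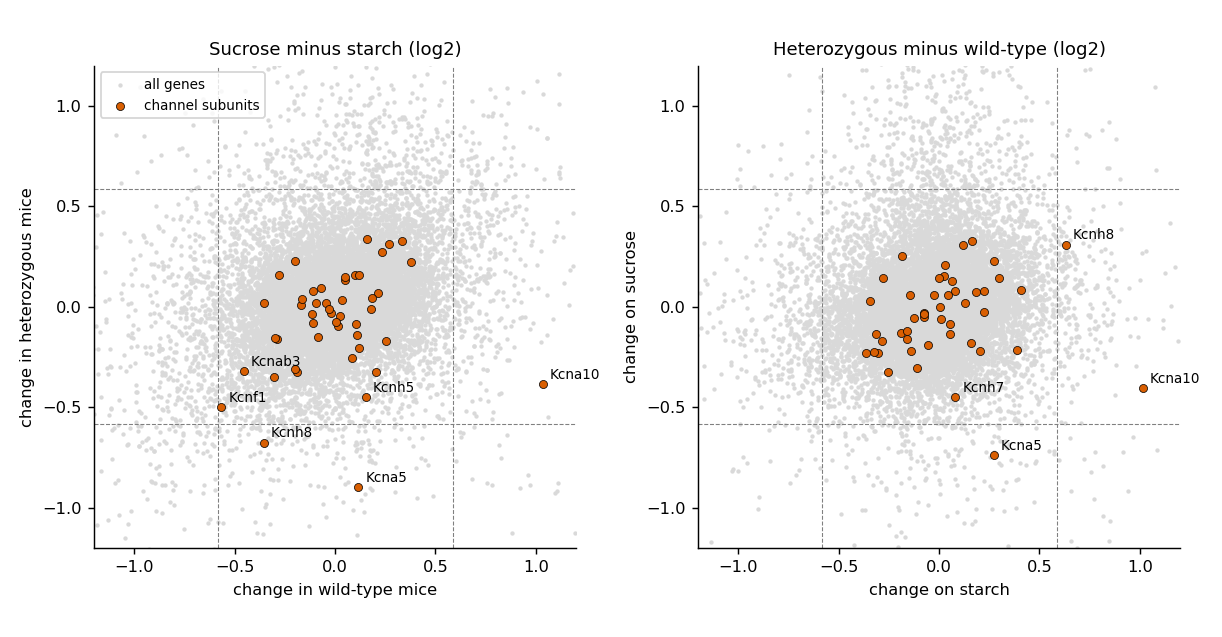
The left panel plots the diet change (sucrose minus starch, log2) in wild-type mice against that in heterozygous mice, and the right panel the genotype change (heterozygous minus wild-type, log2) on starch against that on sucrose, for all genes in grey and the 47 subunits in orange. Dashed lines mark 1.5-fold. The axes end at 1.2, which leaves out 431 genes on the left and 336 on the right but no subunit. Kcna10, Kcna5 and Kcnh8 are the only subunits past a dashed line.

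Among the 8 Kv1 alpha subunits, which open near threshold and hold back repetitive firing, 2 passed 1.5-fold: Kcna5 and Kcna10. The first 30 of the 60 bases of their single probes are shown because the calls of each gene rest on that 1 probe. They lie on build mm9 at chr6:126482573-126482632 on the minus strand for Kcna5 and chr3:106998421-106998480 on the plus strand for Kcna10.
Kcna5 probe A_52_P58283: ggcttttgagaattcattcttttcattttg
Kcna10 probe A_66_P107256: cctcaacagcatgggctccagaatggggag
Whether these or later probes lie in coding or untranslated exons was not analysed here.

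Kcna5 encodes the ultrarapid delayed rectifier known from atrial muscle and blood vessels. Its level was 0.223 and 0.242 on starch and sucrose in wild-type mice and 0.27 and 0.145 in heterozygous mice. The heterozygous sucrose array stood below the other three, and the heterozygous starch array was the highest. Sucrose minus starch was -0.90 in heterozygous and 0.12 in wild-type mice, and heterozygous minus wild-type was -0.74 on sucrose and 0.27 on starch. The interaction was -1.01. The spot error of a change between arrays is 0.34 for a probe as dim as this. With another background correction (normexp) the genotype change on sucrose was -0.579 and the change with both factors -0.53 (otherwise -0.63), both just short of 1.5-fold. The summed level of the striatal markers was also lowest on the heterozygous sucrose array, as were 10 of the 12 markers singly, and their median diet changes were 0.99 in wild-types and -0.99 in heterozygotes. With both factors the median of that list was -0.090, against -0.63 for Kcna5. Choroid plexus markers were highest on the heterozygous sucrose array. Neither was tested for its part in the Kcna5 values.

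Kcna10 encodes a Kv1 subunit known from hair cells of the inner ear. It was in the dimmest signal quartile, with levels of 0.00769 and 0.0157 on starch and sucrose in wild-type mice and 0.0155 and 0.0119 in heterozygous mice. The wild-type starch array was low and the other three were closer together. The diet change was 1.03 in wild-types and -0.39 in heterozygotes, the genotype change 1.01 on starch and -0.41 on sucrose, and the interaction -1.42. With normexp the first of these changes was 0.041, the starch genotype change 0.096 and the interaction -0.19. Every call for this gene was lost under that correction. The striatal markers had medians of the same sign as Kcna10 in these comparisons, at 0.99 and -0.99 for diet, 0.83 and -1.26 for genotype and -2.02 for the interaction. With both factors the signs differed, at -0.090 for the list and 0.63 for Kcna10. Their part in the Kcna10 values was not tested.

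The other 6 Kv1 alpha subunits stayed within 1.5-fold. Kcna1 and Kcna2, the dendrotoxin-sensitive axonal subunits, had levels of 10.8, 11.6, 11.2 and 10.6 for Kcna1, and 0.689, 0.822, 0.793 and 0.706 for Kcna2. Kcna1 had the narrower range, 0.14 against 0.26 for Kcna2. For Kcna2 the diet change was 0.26 in wild-types and -0.17 in heterozygotes, an interaction of -0.42. Kcna4, which carries an inactivating A-type current, was 1.296, 1.202, 1.41 and 1.49. Its highest array was heterozygous sucrose, 0.31 above wild-type sucrose.

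Kcna6, a delayed-rectifier partner of Kcna1 and Kcna2, was 18.6, 17.2, 15.1 and 14.7. Both heterozygous arrays were below both wild-type arrays, with genotype changes of -0.31 on starch and -0.23 on sucrose. Its second, dimmer probe went the other way, with 0.13 and 0.088. Kcna3, known from lymphocytes and microglia as well as neurons, was 0.141, 0.124, 0.136 and 0.109. Its diet changes were -0.19 in wild-types and -0.33 in heterozygotes, and the microglial markers had medians of -0.19 and -0.047. The last of the family, Kcna7, known from muscle, spanned 0.16.

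The 3 beta subunits share an aldo-keto reductase fold and bind the cytoplasmic face of Kv1 channels. Kcnab1, which can give a channel fast inactivation, was 5.599 and 7.05 on starch and sucrose in wild-type mice and 5.92 and 7.43 in heterozygous mice. Both sucrose arrays were above both starch arrays, with diet changes of 0.33 in wild-types and 0.33 in heterozygotes and genotype changes of 0.08 on starch and 0.076 on sucrose. A second probe, below the median signal, gave 0.38 and -0.014 for diet. Kcnab2, which takes Kv1 channels to the axon, was 0.321, 0.372, 0.375 and 0.393. Its range was 0.29.

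Kcnab3 was 1.39 and 1.02 on starch and sucrose in wild-type mice and 1.08 and 0.867 in heterozygous mice. The wild-type starch array was the highest and heterozygous sucrose the lowest. Diet changes were -0.45 in wild-types and -0.32 in heterozygotes, genotype changes -0.36 on starch and -0.23 on sucrose, and the change with both factors -0.68, which passed 1.5-fold. The 4 single-factor changes of Kcnab3 all had the same sign and none passed 1.5-fold alone. The olfactory bulb and blood markers were also lower on both sucrose arrays, with median diet changes of -2.14 and -0.85 for the first list and -1.46 and -0.78 for the second. With both factors all 7 olfactory bulb and all 6 blood markers were below 0. For genotype on sucrose all of them were above 0, with medians of 1.38 and 0.28, against -0.23 for Kcnab3. Interneuron, thalamic, astrocyte, oligodendrocyte, microglial and endothelial markers also had medians below 0 for diet in both genotypes. The part of any list in the Kcnab3 values was not tested.

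Kv2 subunits carry the delayed rectifier of pyramidal cell bodies. Kcnb2 was 0.367, 0.319, 0.416 and 0.335. Both sucrose arrays were below both starch arrays, with diet changes of -0.20 and -0.31 in wild-type and heterozygous mice.

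The 4 Kv3 alpha subunits switch on and off fast enough for sustained firing at high rates. Kcnc1 and Kcnc2 are known from parvalbumin interneurons, and neither passed 1.5-fold. Kcnc1 was 2.404, 2.73, 2.495 and 2.57, with a range of 0.18. Kcnc2 was 1.95, 2.09, 1.71 and 1.91, with a range of 0.29. Cortical interneuron markers, all 10 measured, had medians of -0.082 and -0.18 for diet in wild-type and heterozygous mice. Pvalb itself, which encodes parvalbumin, gave 0.32 and 0.020. Kcnc4, the inactivating member, spanned 0.28, and its genotype changes were -0.28 on starch and -0.17 on sucrose. Its other probe, A_51_P172777, gave the opposite sign, with 0.33 and 0.13.

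Kv4 channels carry the A-type current of dendrites, which damps back-propagating action potentials. Kcnd2 was 6.19, 6.003, 6.47 and 6.56, with a range of 0.13. Kcnd3 was 10.1, 8.27, 10.3 and 9.19. Both sucrose arrays of Kcnd3 were below both starch arrays, with diet changes of -0.29 and -0.16, and its second probe gave -0.12 and -0.30.

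Kcnd1 was measured by 3 probes that disagreed, so the start of each is shown with its place on the plus strand of the X chromosome. In the printed order they lie at chrX:7413570-7413629, chrX:7400336-7400395 and chrX:7415303-7415362 on mm9, and the first is the brightest.
Kcnd1 probe A_55_P1965478: aactccagcttgggtactccgtgcctcctc
Kcnd1 probe A_66_P109240: acaacctcctggctctagagctacccttga
Kcnd1 probe A_66_P126157: accaatcttggattcagatcgacacatttt
The brightest probe had levels of 0.708 and 0.629 on starch and sucrose in wild-type mice and 0.569 and 0.571 in heterozygous mice. Sucrose minus starch in wild-type mice was -0.17 for it, -0.84 for A_66_P109240 and 0.76 for A_66_P126157. In heterozygous mice the same change was 0.0066, 0.032 and 0.56. Heterozygous minus wild-type on starch was -0.31, -0.96 and 0.12 in the same probe order. No direction of that change or of the diet change in wild-type mice holds over the 3 probes. A_66_P109240 was in the dimmest signal quartile.

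The 10 electrically silent subunits form no channel alone and assemble with Kv2 subunits, whose gating they shift. None passed 1.5-fold in a single-factor comparison, and 1, Kcnf1, did with both factors. Kcnf1 had 1 probe, shown because it carries the largest diet difference that both genotypes reached. The probe lies at chr12:17179527-17179586 on the minus strand.
Kcnf1 probe A_52_P203316: atactcagagatccaaagtatctttttgct
Its level was 2.200 and 1.49 on starch and sucrose in wild-type mice and 2.02 and 1.43 in heterozygous mice. Both sucrose arrays were below both starch arrays. The diet change was -0.57 in wild-type mice, just short of 1.5-fold, and -0.50 in heterozygous mice, while genotype changes were -0.13 on starch and -0.059 on sucrose. With both factors it was -0.63. The spot error of such a change is 0.068 for a probe as bright as this. The olfactory bulb markers were also lower on both sucrose arrays, with median diet changes of -2.14 in wild-types and -0.85 in heterozygotes, and so were the blood markers, at -1.46 and -0.78. For genotype on sucrose the medians of these lists were 1.38 and 0.28, against -0.059 for Kcnf1. Their part in the Kcnf1 values was not tested.

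Kcns1 and Kcns3 went the other way with diet. Kcns1 was 2.26, 2.66, 2.02 and 2.44. Kcns3 was 0.5103, 0.614, 0.484 and 0.601. For both genes each sucrose array was above each starch array, with diet changes of 0.23 and 0.27 for Kcns1 in wild-type and heterozygous mice, and 0.27 and 0.31 for Kcns3. Both changes of Kcns3 exceed its spot error of 0.12.

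The level of Kcnv1 was 3.58, 3.38, 3.003 and 2.703. Both heterozygous arrays were below both wild-type arrays, with genotype changes of -0.26 on starch and -0.32 on sucrose and diet changes of -0.083 and -0.15. Its next probe, A_52_P302316, gave genotype changes of -0.067 and -0.18 and diet changes of -0.083 and -0.19, which were the larger on that probe. Kcng1 had genotype changes of the opposite sign and was 1.26, 1.202, 1.41 and 1.51, with changes of 0.17 on starch and 0.33 on sucrose.

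Kcng2 was the flattest of all 47 subunits on the brightest probe, at 1.45, 1.43, 1.45 and 1.42, with a range of 0.029. Its second probe, in the dimmest signal quartile, gave -0.54 for genotype on starch. Kcng3, Kcng4 and Kcnv2, which is known from photoreceptors, were themselves in the dimmest signal quartile, with ranges of 0.37, 0.35 and 0.17. The remaining member, Kcns2, spanned 0.13.

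The Kv7 family carries the M current of neurons, which opens slowly below threshold and quiets repetitive firing. Kcnq3, a subunit of that current, was 0.202, 0.22, 0.192 and 0.214, with a range of 0.19. Its second probe, A_55_P2721718, gave 0.32 for genotype on starch, where the brightest gave -0.076.

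Kcnq1, best known from heart and inner ear, had 5 measured probes. Its brightest probe was 0.1301 and 0.105 on starch and sucrose in wild-type mice and 0.158 and 0.123 in heterozygous mice. Both sucrose arrays were below the starch array of the same genotype, by 0.31 in wild-types and 0.35 in heterozygotes, and both heterozygous arrays were above their diet-matched wild-type arrays, by 0.28 and 0.23. A second probe that overlaps it in sequence gave -0.39 and -0.26 for diet, which is not an independent reading. The other 3 probes, all in the dimmest signal quartile, were not lower on sucrose in both genotypes. A_55_P2745108 gave 0.67 for diet in heterozygotes and -1.35 for genotype on starch, both past 1.5-fold and opposite in sign to the brightest probe. A_66_P102591 gave 0.30 and -0.16 there, and A_55_P2745114 gave diet changes of 0.043 in wild-types and -0.087 in heterozygotes. The spot error of these changes is 0.34.

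Kcnq5, which joins the M current in cortex, was 4.56, 3.76, 4.02 and 4.48. Its diet change was -0.28 in wild-types and 0.16 in heterozygotes, and the interaction of 0.44 was the highest of the 47. The second brightest Kcnq5 probe, A_66_P122053, gave 0.24 and 0.21 for diet, so the 2 probes disagreed in wild-type mice. Another probe in the dimmest signal quartile, A_55_P2023717, gave -0.75 for diet in heterozygotes and 0.72 for genotype on starch. Both are past 1.5-fold and opposite in sign to the brightest probe, at 0.16 and -0.18.

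The 8 KCNH subunits comprise the EAG, ERG and ELK branches. In the ELK branch, which opens at negative potentials and lowers excitability, Kcnh8 passed 1.5-fold. Both of its probes are shown because the files give them this gene's name and their strand is in question. They lie at chr17:53092784-53092843 and chr17:53093300-53093359, which the files place on the minus strand.
Kcnh8 probe A_55_P2804129: ccagtggttagctatccgcacgttatttgc
Kcnh8 probe A_55_P2147245: ataaacgtataatatcagcacacaagggcc
The RefSeq table of assembly GRCm38.p6 places Kcnh8 on the plus strand. Of 57 probes of 31 channel genes with a strand in that table, these 2 were the only ones whose strand differed, so they may read RNA from the strand opposite Kcnh8, and the values below are given under the files' name.

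The brighter Kcnh8 probe had levels of 0.0524 and 0.0409 on starch and sucrose in wild-type mice and 0.0811 and 0.0507 in heterozygous mice. Heterozygous starch was the highest array and wild-type sucrose the lowest. Sucrose minus starch was -0.36 in wild-types and -0.68 in heterozygotes, and heterozygous minus wild-type was 0.63 on starch and 0.31 on sucrose. The dimmer probe had levels of 0.0134 and 0.0105 on starch and sucrose in wild-type mice and 0.0178 and 0.0129 in heterozygous mice. The 4 arrays stood in the same order as for the brighter probe, with diet changes of -0.35 and -0.46 and genotype changes of 0.41 and 0.30, none past 1.5-fold. With normexp the brighter probe gave -0.42 for diet in heterozygotes and 0.31 for genotype on starch, and with the mean of both probes -0.57 and 0.52, all short of 1.5-fold. Olfactory bulb and blood markers were lower on both sucrose arrays as well, as given beside Kcnf1. For genotype on starch their medians were -0.053 and -0.31, against 0.63 for the brighter probe.

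The other ELK subunits, Kcnh3 and Kcnh4, spanned 0.22 and 0.19. In both, the genotype change was negative on either diet, at -0.14 and -0.22 for Kcnh3 and -0.16 and -0.16 for Kcnh4. Among the EAG subunits, Kcnh1 was 8.48, 9.61, 7.85 and 7.79. Its genotype changes were -0.11 on starch and -0.30 on sucrose, and its 2 other probes gave -0.15 and -0.13 on sucrose. On starch those 2 gave 0.027 and 0.078, opposite in sign to the brightest probe.

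Kcnh5, the second EAG subunit, was 0.898 and 0.999 on starch and sucrose in wild-type mice and 1.18 and 0.86 in heterozygous mice. Heterozygous starch was the highest array and heterozygous sucrose the lowest. Diet changes were 0.15 in wild-types and -0.45 in heterozygotes, and the interaction of -0.61 was past the counted size, but -0.54 with normexp was not. The spot error of an interaction is 0.17 for a probe as bright as this.

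The ERG subunits carry a current that resists sudden bursts of firing. Kcnh7 was 0.197, 0.227, 0.208 and 0.166. Heterozygous sucrose was the lowest array, as for Kcna5, -0.45 relative to wild-type sucrose and -0.33 relative to heterozygous starch. Its second probe, A_52_P376374, gave -0.45 and -0.47, and the third, A_52_P408230, gave -0.016 and 0.079. Kcnh2 and Kcnh6, the other ERG subunits, spanned 0.13 and 0.07. The brightest Kcnh2 probe gave 0.014 for diet in wild-types and 0.13 for genotype on starch, where its second probe, A_51_P131175, gave -0.49 and -0.42. The summed level of the striatal markers was, like Kcna5, Kcnh5 and Kcnh7, lowest on heterozygous sucrose. That array was the lowest for 10 of the 12 markers, while Six3 and Gpr6 were lowest on wild-type starch. The median interaction of the list was -2.02, and its part in the values of these channels was not tested.

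None of the 4 HCN channels passed 1.5-fold. Hcn2, the widespread and slower channel, was 11.4, 9.93, 9.38 and 10.97. Its diet change was -0.20 in wild-types and 0.23 in heterozygotes.

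Hcn3 was 1.36, 1.48, 1.81 and 1.57. The heterozygous starch array was the highest, 0.41 above wild-type starch, and the 2 dimmer probes gave 0.065 and -0.092 there. Hcn4, the channel of the sinoatrial pacemaker and of thalamic relay neurons, was 0.152, 0.124, 0.152 and 0.137. Its diet changes were -0.30 and -0.16, within the spot error of 0.34, and the thalamic markers had medians of -0.021 and -0.16.

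Across the families, a diet change beyond 0.25 in the same direction in both genotypes was found in 2 subunits upward, Kcnab1 and Kcns3, and in 4 downward, Kcnab3, Kcnf1, Kcnh8 and Kcnq1, each on its brightest probe. These are 4.26% and 8.51% of the subunits, against 4.46% and 4.05% of all genes. The genotype change met the same condition upward in Kcnh8 and downward in Kcnv1, 2.13% each, against 2.15% and 2.55% of all genes. It had opposite signs on the 2 diets, both beyond 0.25, in Kcna5 and Kcna10, 4.26% against 3.01% of all genes. A share resting on 1 to 4 genes is a description of those genes only.

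Directions shared with the marker lists were counted whatever the size of the change. Sucrose was below starch in both genotypes, as for the olfactory bulb and blood markers, in 13 of the 47 subunits (27.7%) against 30.2% of all genes. Besides Kcnf1, Kcnh8 and Kcnab3 these were Kcnq1, Kcnb2, Kcnd3, Kcna3, Kcna6, Kcna7, Kcng2, Kcnh6, Kcnv1 and Hcn4. The signs of the striatal medians in the 4 single-factor comparisons were found in 9 subunits (19.1%), among them Kcna1, Kcna2, Kcna5, Kcna10, Kcnh5 and Kcnh7, against 11.9% of all genes. The 8 subunits that were highest on the heterozygous sucrose array, among them Kcna4 and Kcng1, shared that with the summed choroid plexus markers. They are 17.0% of the subunits, against 21.8% of all genes. The part of these markers in the values of the subunits was not tested.

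**Figure D3:**
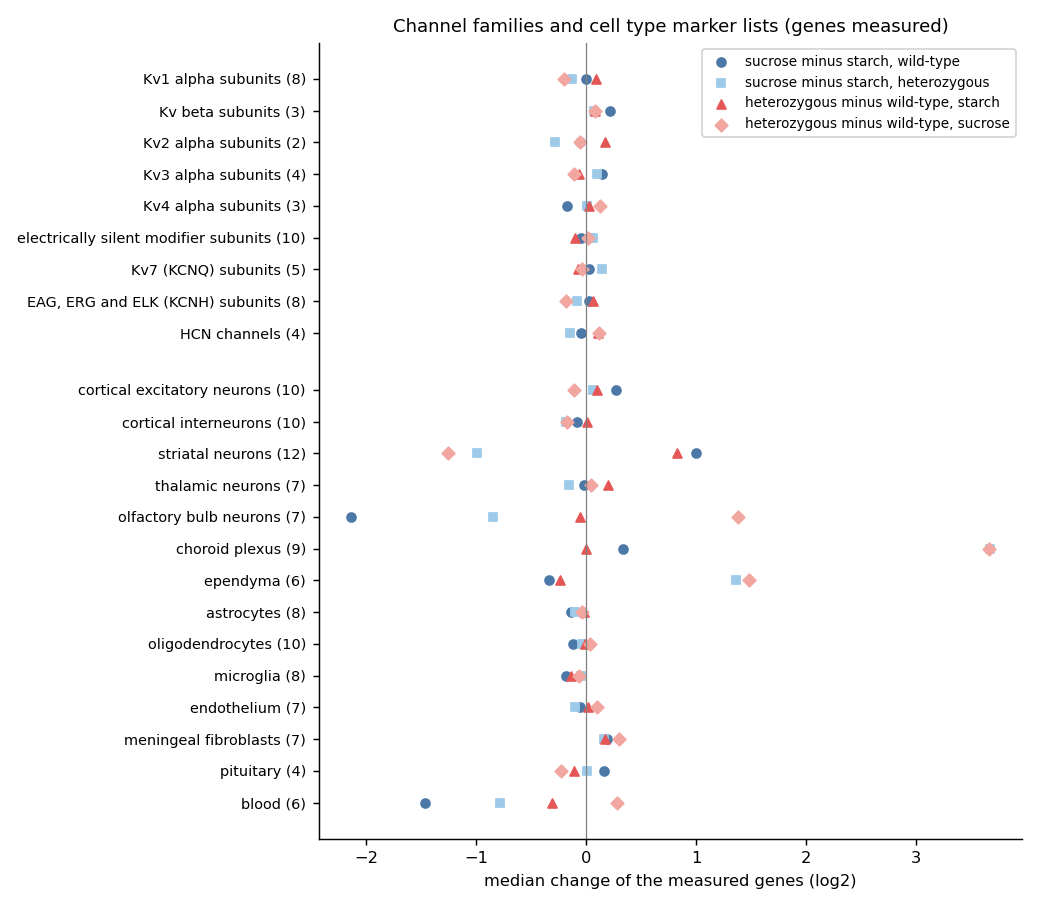
Each point is the median log2 change of the measured genes of a list in 1 of the 4 single-factor comparisons, with the 9 channel families above and the 14 cell type marker lists below, and the number of measured genes in brackets. The family medians lie between -0.28 and 0.21, while those of striatal, olfactory bulb, choroid plexus, ependymal and blood markers spread further. Cortical excitatory neuron markers reach 0.27 and meningeal fibroblast markers 0.30.

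Of the 47 genes, 24 had more than 1 measured probe, which gave 42 further probes. Of these, 5 (11.9%) passed 1.5-fold in a single-factor comparison, against 12.1% of the 14822 further measured probes of all genes. Among the 5 were 2 of Kcnd1, whose brightest probe did not. Of the 5 probes, 3 were in the dimmest signal quartile, which held 13 of the 42. That is 23.1% of the 13, where 26.2% of such probes of all genes passed. Probes of a gene can read different transcript ends or isoforms, and which transcripts each probe here reads was not analysed.

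**Figure D4:**
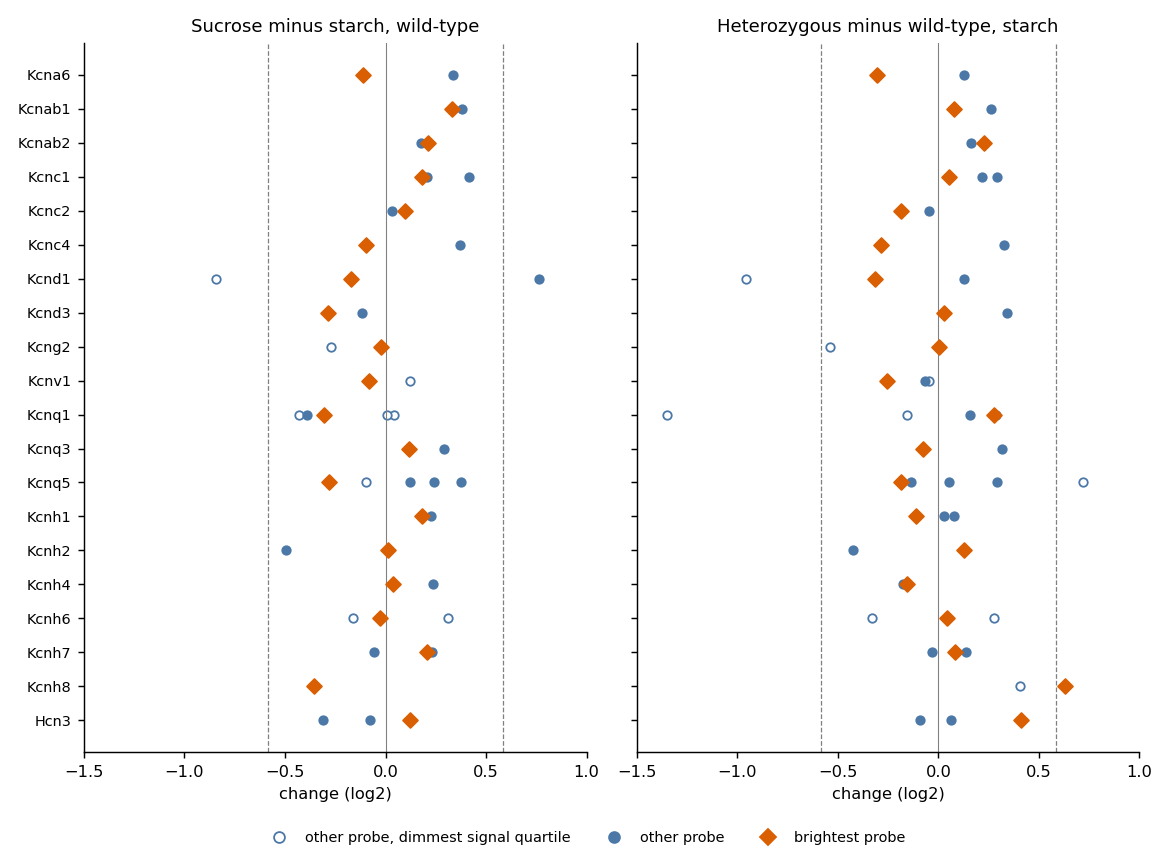
For 20 genes with more than 1 measured probe, each point is the log2 change of 1 probe, for diet in wild-type mice (left) and genotype on starch (right), with the brightest probe as a diamond, open circles for other probes in the dimmest signal quartile and dashed lines at 1.5-fold. Kcnd1 probes lie between -0.84 and 0.76 on the left.

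Related channels and channel partners were listed for comparison, and 82 of 85 were measured. At 1.5-fold, 3 (3.66%) were higher and 3 lower with diet in wild-type mice, where 2.4% and 3.53% of all genes were. In heterozygous mice 3 were higher and 3 lower, where 3.57% and 2% of all genes were. With genotype on starch it was 2 (2.44%) in each direction, where 1.48% and 2.48% of all genes were. With genotype on sucrose it was 5 (6.10%) in each direction, where 3.28% and 1.29% of all genes were, the widest gap from the background among the 4 comparisons. The partners that shape Kv4 currents stayed within 1.5-fold: Dpp6, a transmembrane partner, gave diet changes of 0.26 and 0.24, and Kcnip4, a calcium-binding partner, 0.20 and -0.064. Kcne2, a single-pass partner of Kcnq1, Kcnh2 and HCN subunits, was 0.0126 and 0.0419 on starch and sucrose in wild-type mice and 0.01303 and 1.39 in heterozygous mice. The heterozygous sucrose array was far above the rest. Kcne2 is also known from choroid plexus epithelium, as is the inward rectifier Kcnj13, which was 0.346, 0.374, 0.463 and 2.28. Kcnj13 is itself on the choroid plexus marker list. The choroid plexus markers were highest on the same array, with Ttr, the transthyretin transport protein, at 0.259 and 1.42 on starch and sucrose in wild-type mice and 0.101 and 58.7 in heterozygous mice. None of the channel subunits shared a difference of that size on that array.

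The sodium channel beta subunit Scn4b, enriched in striatum, was 3.14, 5.398, 3.94 and 2.67. It was highest on wild-type sucrose and lowest on heterozygous sucrose. The two-pore channel Kcnk15 was 0.155, 0.0327, 0.154 and 0.0792 and was lower on both sucrose arrays, as the olfactory bulb markers were. Kcnj15, an inward rectifier, and Scn10a, a sodium channel known from sensory neurons, also passed 2-fold in a single-factor comparison, with levels of 0.0212, 0.0626, 0.0164 and 0.0311 for Kcnj15, and 0.0558, 0.0615, 0.0485 and 0.0304 for Scn10a.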

How the data were processed

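Total RNA of 3 pooled mice per group was labelled with Cy3 and hybridised to 1 one-colour Agilent array per group. The deposited scanner files hold spot intensity processed by Agilent Feature Extraction 11.5.1.1, per the submitters' processing notes. Per the file headers, background was subtracted with spatial detrending, multiplicative detrending was applied within arrays and nothing was normalised between them. The deposited series matrix holds a ratio per spot, which on comparison was the processed signal divided by 1 constant per array. Probe coordinates are the files', on mm9. Each array had 62976 spots, 59305 of them non-control, and 77.6 to 80.2% of spots were well above background. No spot was saturated.

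From these, each processed signal was divided by its array's 75th percentile (non-control spots) and put on the log2 scale. Spots the software had marked as outliers were left out, spots of a probe were averaged, and 42094 of 56605 probes that were well above background on all arrays were used. A gene is its probe of highest mean, and 20648 of 27241 named genes were measured. Differences are between single arrays, at 1.5-fold, with no test, and their number limits the precision. Spot error came from repeated probes and, for dim signals, from control spots. The computation was tested on simulated data. Strand and symbols were checked against RefSeq tables of GRCm38.p6. Alternatives were median scaling, quantile normalisation, normexp (offset 50; limma 3.58.1, R 4.3.3), the series matrix, no filter on dim probes, genes above the median signal, the mean of a gene's probes, and outlier spots kept. The genes named are those past 1.5-fold in a single-factor comparison, then those of widest range up to 25, with Glo1, 12 well-known subunits, and related genes past 2-fold. Subunits outside this rule are given to complete their family, and further probes, partners and markers to complete a gene or result; these were chosen with their values known. The members, lists and rules were all chosen with earlier results of these data known. Results for some of the subunits are not reported here. Python 3.11.15 was used.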

Additional observations from a re-analysis of the deposited data

Results flagged for a closer look

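Kcna10 and Kcna5 had diet changes of opposite sign in the 2 genotypes that differed by 1 or more on the log2 scale. The diet change in heterozygous minus that in wild-type mice was -1.42 for Kcna10 and -1.01 for Kcna5. Over the processing settings these differences were as small as -0.19 and -0.79, which are short of that size. The wild-type diet change of Kcna5, 0.12, lay within its spot error of 0.34, so its sign is not settled. How many of all genes meet this rule was not counted. With 1 array per group the difference was not tested. Kcna10 is in the dimmest signal quartile and Kcna5 in the next, where the spot error of such a difference is 0.48.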

How the results depend on the processing

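The counts of subunits past 1.5-fold were the same under median scaling, quantile normalisation, the series matrix values, no filter on dim probes and outlier spots kept. The series matrix divides the same signal by almost the same constants as the main setting. For wild-type starch these were 1780.61 and 1780.37, and for heterozygous sucrose 1928.92 and 1928.9. Every subunit passed the filter on dim probes, and its brightest probe was the same without it. Neither the series matrix nor the unfiltered setting could therefore change the counts, so their agreement is no check. With normexp background correction the counts were 0 for diet in wild-type mice, 1 for diet in heterozygous mice, 0 for genotype on starch, 0 for genotype on sucrose, 2 for both factors and 1 for the interaction. Among the 35 subunits above the median signal they were 0, 0, 0, 0, 2 and 1 in that order. With the mean of a gene's probes, diet in heterozygous mice gave 1 and genotype on starch 1. For diet in wild-type mice the share of all genes past 1.5-fold, 5.93%, was also lower in these settings, at 2.31% with normexp, 2.30% above the median signal and 5.80% with the mean of a gene's probes. Normexp adds an offset of 50, which draws dim values together, and the setting above the median signal holds fewer genes. The cause was otherwise not tested. The 6 medians moved by less than the typical spot error of a change (0.12) under each of the 8 alternatives, though medians this near 0 have no settled sign. That error is of a single probe and is larger than any of the 6 medians, so staying within it says little about them. The change of Kcna10 with both factors turned to -0.058 with normexp. Kcna5 stayed past 1.5-fold for diet in heterozygous mice and for the interaction in 8 of the 8 settings that measured it, at -0.93 to -0.74 and -1.04 to -0.79. The main setting is 1 of these 8. The series matrix, the unfiltered setting and the mean of a gene's probes repeat its values, as Kcna5 has 1 probe. Kcnh8 stayed past in 6 of 8, the main setting among them, for diet in heterozygous mice (-0.71 to -0.42) and for genotype on starch (0.31 to 0.63). The series matrix and the unfiltered setting repeat the main values of Kcnh8 as well. No paired analysis was run because each group has 1 array, and no array could be left out. Depth is set by signal over background: all calls in single-factor comparisons were below the median signal.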

Other observations

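The 2 RNAs that overlap channel genes were measured too. Kcnq1ot1, the long non-coding RNA transcribed opposite to Kcnq1, was 13.2 and 11.9 on starch and sucrose in wild-type mice and 13.2 and 12.8 in heterozygous mice, a range of 0.15. Kcnd3os was 0.104 and 0.118 on starch and sucrose in wild-type mice and 0.103 and 0.121 in heterozygous mice, a range of 0.23. Neither passed 1.5-fold in a single-factor comparison.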
